A study of Mus musculus with 24 samples.

Results

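The 72 genes described here encode the classical axon guidance cues and their receptors: the Slits and Robo receptors, the semaphorins with the plexins and neuropilins, the ephrins with the Eph receptors, and the netrins with Dcc and the Unc5 receptors. They were picked by gene symbol from the 24340 genes in the striatal tables, with earlier results of these data known. All 72 reached at least 0.1 FPKM (fragments scaled by transcript length and by the mapped fragments of the library) in at least 1 group, as did 17264 genes in all. They comprised 37 ligands, 34 receptors and 1 noncoding RNA, Plxna4os1, which runs antisense to Plxna4. RNA of the striatum from 24 male mice was sequenced in 4 groups: wild type littermates given vehicle (WT-vehicle, n = 5 libraries), R6/1 mice given vehicle (R6/1-vehicle, n = 6), wild type mice given RGFP109 (WT-RGFP109, n = 6) and R6/1 mice given RGFP109 (R6/1-RGFP109, n = 7). R6/1 is a Huntington's disease model, hemizygous here and on a C57BL/6J background, whose transgene is a fragment of human HTT holding the first exon with an expanded CAG repeat. RGFP109, which inhibits the histone deacetylases HDAC1 and HDAC3, was given over 3 weeks as 5 weekly intraperitoneal injections of 30 mg/kg, and the vehicle was dimethyl sulfoxide diluted in saline. Mice were 11 to 14 weeks old when treatment began and 14 to 17 weeks old when the tissue was taken, 18 h after the last injection.

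Guidance cues are secreted or membrane-bound proteins that attract or repel growing axons by changing the cytoskeleton of the growth cone. Slits act through Robo receptors, semaphorins through plexins that often pair with a neuropilin, ephrins through Eph receptor tyrosine kinases, and netrins through Dcc and the Unc5 receptors. In the adult brain many of these proteins remain at synapses, and in the striatum the receptor Plxnd1 and its ligand Sema3e are known for shaping the input from the thalamus onto projection neurons of the direct pathway.

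The values are the authors' group values, 1 per group in each pairwise table, so they carry no SD and no test between groups could be made on them. The authors' own test results for these pairs exist and were not used here. The depth of the libraries is unknown. A gene is called higher or lower where the log2 ratio of 2 group values, after adding 0.05 FPKM, was above 0.5 or below -0.5, and this is a statement of size only. Each ratio is taken within the table of its own pair of groups. The vehicle groups are read from 1 table and the RGFP109 groups from another, which were normalized separately, and the value of a group differed between its tables by a common factor with a median between 0.962 and 0.999. The libraries were sequenced in pools that each held libraries of every group, per the paper's methods. The labels do not say which library was in which pool. In bulk tissue fewer cells of a type and less RNA per cell cannot be told apart.

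Most guidance genes were detected at low to moderate levels. The mean over the 4 groups was below 1 FPKM for 9 members, from 1 to 10 FPKM for 41 and at least 10 FPKM for 22, and the median member had 5.46 FPKM against 7.70 FPKM for all genes. The mean levels ran from 0.164 FPKM for Epha1 to 61.2 FPKM for Efnb3, a transmembrane ephrin. After Efnb3 came 2 further ligands, the transmembrane semaphorin gene Sema6b at 43.1 FPKM and Efna3, an ephrin held in the membrane by a lipid anchor, at 31.8 FPKM. The receptors with the most RNA were Ephb6 at 29.2 FPKM, Epha4 at 27.8 FPKM and Unc5a at 25.9 FPKM. Among plexins and neuropilins the highest was Plxnb1, a receptor of transmembrane semaphorins, at 19.7 FPKM. Robo2 led the Robo receptors at 14.8 FPKM and Slit1 the Slits at 11.9 FPKM. Plxna4os1 had between 0.162 and 0.316 FPKM in the 4 groups, and because the library kit does not mark strand its reads cannot be told apart from those of Plxna4 where they overlap.

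**Figure D1:**
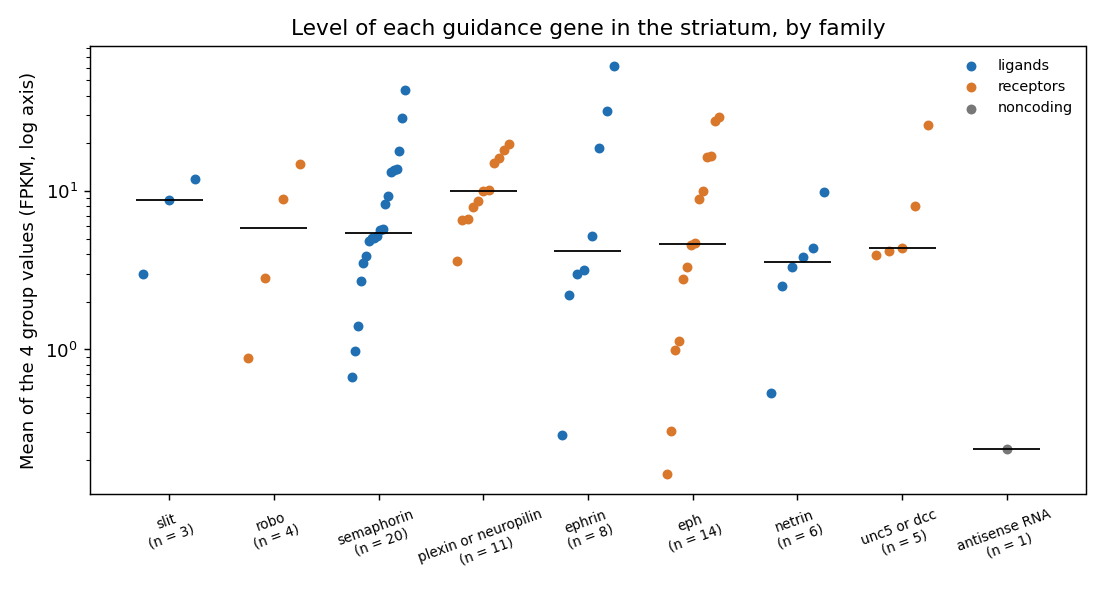
Each point is 1 of the 72 guidance genes, placed by its mean FPKM over the 4 group values (log axis) within its family, with ligands in blue, receptors in orange and the antisense RNA in grey, and the black line is the family median. The ephrins span the widest range among the ligands, from Efna4 at 0.289 FPKM to Efnb3 at 61.2 FPKM.

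The first comparison asked which guidance genes differed between R6/1 and wild type striatum, under vehicle and, in other mice, under RGFP109. Under vehicle 13 members (18.1%) were lower in R6/1 mice, beside 13.3% of all genes, and 4 (5.56%) were higher, beside 5.86%. Under RGFP109 10 members (13.9%) were lower, beside 11.7% of all genes, and 1 (1.39%) was higher, beside 5.53%. In both comparisons 8 members (11.1%) were lower, beside 7.73% of all genes, and 0 were higher, beside 2.35%. The gaps to the shares of all genes rest on few members and were not tested, and the counts of lower members overlap in the same 8 genes. The median log2 ratio of the members was -0.083 under vehicle, where that of all genes was -0.017, and -0.136 under RGFP109, where that of all genes was 0.00. Without the 8 members lower in both comparisons the medians were -0.046 and -0.082. The other members past the fold were 5 that were lower under vehicle alone, 2 lower under RGFP109 alone, 4 higher under vehicle alone and 1 higher under RGFP109 alone, while 52 of the 72, 29 ligands, 22 receptors and Plxna4os1, were past the fold in neither. The ratio was below 0 for 42 of the 72 members (58.3%) under vehicle and for 47 (65.3%) under RGFP109, beside 52.2% and 49.8% of all genes. Ligands had medians of -0.086 and -0.134 and receptors of -0.0025 and -0.124.

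The 8 genes lower in both comparisons were 4 ligands, Sema7a, Sema5b, Ntng2 and Ntn5, and 4 receptors, Robo3, Plxnd1, Epha10 and Ephb3. In mm10 coordinates Robo3 lies on chr9:37416045-37433175, Sema7a on chr9:57940135-57962865, Plxnd1 on chr6:115954811-115995005, Ephb3 on chr16:21204795-21223304 and Sema5b on chr16:35541362-35664258. The tabulated loci of the other members of the 8 also cover a neighbouring gene, and are chr4:124881785-124917800 for Epha10, chr2:29194726-29252993 for Ntng2 and chr7:45677686-45694556 for Ntn5. Of the 3 members closest to joining them, Sema3b had log2 ratios of -0.58 and -0.48, Sema4a of -0.46 and -0.51, and Epha8 of -0.46 and -0.64, under vehicle and RGFP109.

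**Figure D2:**
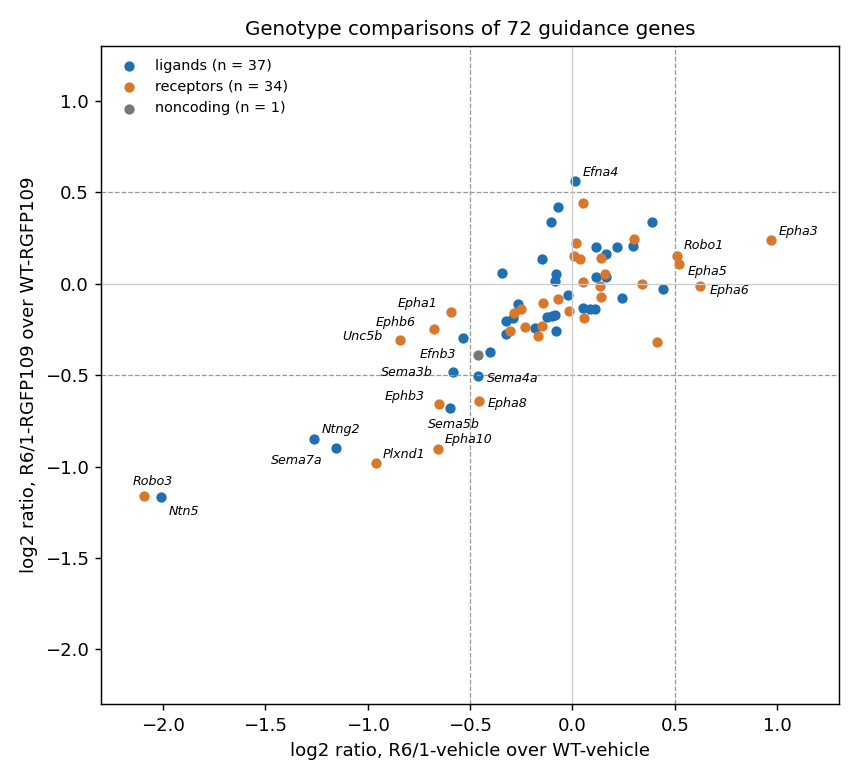
Each point is 1 guidance gene, with its log2 ratio of R6/1-vehicle over WT-vehicle on the x axis and of R6/1-RGFP109 over WT-RGFP109 on the y axis, and the dashed lines mark -0.5 and 0.5. The 8 members lower in both comparisons lie at the lower left, with Robo3 and Ntn5 farthest out, and the upper right corner holds 0 genes.

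Robo3 had the genotype ratio farthest from 0 under vehicle, and under RGFP109 it was second to Ntn5. It encodes the divergent Robo receptor that lets commissural axons cross the midline and that, in mammals, binds Nell2 rather than Slits with high affinity. Its value was 4.81 FPKM in WT-vehicle and 1.09 in R6/1-vehicle, then 3.73 in WT-RGFP109 and 1.64 in R6/1-RGFP109. Both R6/1 values lay below both wild type values, at 0.226 times the wild type value under vehicle and 0.440 times under RGFP109, or log2 ratios of -2.09 and -1.16. Nell2 itself, with 149, 143, 141 and 144 FPKM in the same order of groups, was past the fold in neither genotype comparison.

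The other Robo genes and the Slits did not share the size of the Robo3 ratios. Robo1, a Slit receptor, had 7.34, 10.5, 8.41 and 9.35 FPKM in the order WT-vehicle, R6/1-vehicle, WT-RGFP109 and R6/1-RGFP109. It was therefore higher in R6/1 mice under vehicle, just past the fold with a log2 ratio of 0.51, while under RGFP109 the ratio was 0.15. Robo2 had 14.0, 15.4, 14.9 and 14.7 FPKM, and Robo4, which is known from blood vessels, had between 0.841 and 0.967 FPKM. Among the Slits, Slit1 had 12.5, 11.9, 9.87 and 13.2 FPKM, with log2 ratios of -0.07 and 0.42, and Slit3 had 9.25, 9.10, 8.56 and 8.21 FPKM. The WT-RGFP109 value of Slit1 was the lowest of its 4.

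The semaphorins were the largest family, with 20 genes, and held the ligand with the most abundant RNA among the 8. Their summed level was 217 FPKM in WT-vehicle and 171 in R6/1-vehicle, and 210 in WT-RGFP109 and 173 in R6/1-RGFP109, and 15 of the 20 had a ratio below 0 in each genotype comparison. Sema7a, a lipid-anchored semaphorin that signals through integrins and the receptor Plxnc1, had 40.9 FPKM in WT-vehicle and 18.3 in R6/1-vehicle, then 36.3 in WT-RGFP109 and 19.5 in R6/1-RGFP109. The R6/1 values were thus 0.448 and 0.536 times the wild type values, with log2 ratios of -1.16 and -0.90. Sema5b, a transmembrane semaphorin with thrombospondin repeats, had 9.28, 6.12, 11.0 and 6.85 FPKM, with log2 ratios of -0.60 and -0.68. Sema6b, the semaphorin gene with the highest level, had 48.5, 38.7, 45.5 and 39.5 FPKM and stayed within the fold at -0.33 and -0.20. The Sema7a receptor gene Plxnc1, with 8.37, 8.60, 8.37 and 9.20 FPKM, did not pass the fold in either comparison.

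Of the 11 plexins and neuropilins only Plxnd1 was past the fold in a genotype comparison. Plxnd1 had 24.9 FPKM in WT-vehicle and 12.8 in R6/1-vehicle, then 23.4 in WT-RGFP109 and 11.8 in R6/1-RGFP109. Its ratios of 0.513 and 0.505, or -0.96 and -0.98 on the log2 scale, were close to each other, and both R6/1 values lay far below both wild type values. It was the plexin with the highest level in the wild type groups but not in the R6/1 groups, where Plxnb1 stood above it with 18.4 FPKM under vehicle and 17.7 under RGFP109, against 21.6 and 20.9 FPKM in the wild type groups. Sema3e, which encodes the secreted ligand of Plxnd1, had 4.83, 5.005, 5.42 and 4.93 FPKM, with log2 ratios of 0.05 and -0.13. Nrp2, a co-receptor of secreted semaphorins, had 5.43, 7.26, 7.73 and 6.18 FPKM, and its genotype ratio was 0.42 under vehicle and -0.32 under RGFP109.

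The upstream 250 bases of Robo3, Sema7a and Plxnd1 are shown because, among the lower members with a GC box (the letters GGGCGG on either strand) in this window, these had the ratios farthest from 0 under vehicle. Their annotated starts lie at most 23 bases from the edge of the tabulated gene. The sequences are from RefSeq on GRCm38.p6 (mm10), read 5′ to 3′ on the strand of the gene up to the base before its start, with GC boxes in capitals. They cover chr9:37433176-37433425 (minus strand) for Robo3, chr9:57939862-57940111 (plus strand) for Sema7a and chr6:115995006-115995255 (minus strand) for Plxnd1.
Robo3: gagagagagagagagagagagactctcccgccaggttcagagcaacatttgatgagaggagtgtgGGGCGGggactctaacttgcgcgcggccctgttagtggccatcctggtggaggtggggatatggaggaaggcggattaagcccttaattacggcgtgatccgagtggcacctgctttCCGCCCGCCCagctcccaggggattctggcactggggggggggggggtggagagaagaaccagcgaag
Sema7a: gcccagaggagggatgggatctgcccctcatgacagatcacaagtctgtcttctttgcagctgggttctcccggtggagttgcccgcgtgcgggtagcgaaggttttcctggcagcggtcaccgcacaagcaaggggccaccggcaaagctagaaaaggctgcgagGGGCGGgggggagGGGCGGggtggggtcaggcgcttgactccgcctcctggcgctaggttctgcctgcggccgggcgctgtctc
Plxnd1: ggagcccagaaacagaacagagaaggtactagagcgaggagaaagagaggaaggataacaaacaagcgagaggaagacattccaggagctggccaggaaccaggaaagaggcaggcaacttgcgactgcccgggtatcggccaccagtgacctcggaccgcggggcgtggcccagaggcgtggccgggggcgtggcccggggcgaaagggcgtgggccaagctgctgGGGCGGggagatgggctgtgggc
Robo3 held 3 GC boxes, of which a pair on the opposite strand overlap, Sema7a 2 and Plxnd1 1. Of the 8 genes lower in both comparisons 5 held a GC box in this window (Robo3, Sema7a, Plxnd1, Epha10 and Ephb3), as did 45 of the 61 members with a promoter sequence (73.8%) and 32.7% of all 32851 promoters. An E-box of the letters CAGNTG was found in 6 of the 8, in 28 of the 61 members (45.9%) and in 44.8% of all promoters. The CRE half-site TGACG was found in 1 of the 8, Ephb3, in 7 of the 61 members (11.5%) and in 17.8% of all promoters. Members were counted by gene, with a match in any promoter of the gene, whereas the share of all promoters counts each promoter. Those promoters were not limited to the genes kept here, so the shares are not like for like. Both strands were searched for each motif, and a match describes letters and not binding.

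The ephrins and their receptors included a pair of the 8 genes, both receptors. Epha10 encodes an Eph receptor without an active kinase, and had 9.77 FPKM in WT-vehicle and 6.17 in R6/1-vehicle, then 12.9 in WT-RGFP109 and 6.90 in R6/1-RGFP109, with log2 ratios of -0.66 and -0.90. Ephb3, a receptor of transmembrane ephrins, had 3.88, 2.45, 4.24 and 2.67 FPKM, with ratios of 0.631 and 0.630, or -0.65 and -0.66 on the log2 scale. For both genes the R6/1 values were the lower pair under either treatment. The tabulated locus of Epha10 also holds 1700125G02Rik, and reads of overlapping genes may be split between them.

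Other Eph receptors were past the fold under vehicle alone. Ephb6, which also lacks kinase activity, had 37.2, 23.2, 30.5 and 25.7 FPKM, and its log2 ratio was -0.68 under vehicle and -0.25 under RGFP109. Epha3, a receptor of lipid-anchored ephrins, had 0.702, 1.42, 1.09 and 1.29 FPKM, with log2 ratios of 0.97 and 0.24. The WT-vehicle value of Epha3 was thus the lowest of the 4, and that of Ephb6 the highest. Outside the rule for named genes, and chosen after their values were seen, Epha5 (8.07, 11.6, 9.88 and 10.7 FPKM) and Epha6 (3.69, 5.71, 4.77 and 4.72 FPKM) were also higher under vehicle alone, with log2 ratios of 0.52 and 0.63, against 0.11 and -0.01 under RGFP109. Epha1, at or below 0.192 FPKM in every group, was lower under vehicle alone, and Epha8 was lower under RGFP109 alone. Epha4, which binds both classes of ephrin, had 28.2, 28.4, 25.9 and 28.8 FPKM and ratios of 0.01 and 0.15.

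Among the 8 ephrins Efnb3 was lower under vehicle, with 76.6 FPKM in WT-vehicle and 52.9 in R6/1-vehicle, then 63.5 in WT-RGFP109 and 51.7 in R6/1-RGFP109. Its log2 ratios were -0.53 and -0.30, so that both R6/1 values lay below both wild type values although the second ratio was within the fold. Efna3 showed that order too, with 37.2, 28.1, 34.9 and 26.9 FPKM and ratios of -0.40 and -0.37. Efna4, also outside the rule for named genes, was higher under RGFP109 with a log2 ratio of 0.56, at levels between 0.212 and 0.337 FPKM, close to the minimum for inclusion.

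The netrin family held the remaining 2 of the 8. Ntng2 encodes netrin-G2, which is anchored by lipid in the axon membrane and binds the postsynaptic protein encoded by Lrrc4 rather than Dcc or Unc5 receptors. It had 13.2 FPKM in WT-vehicle and 5.47 in R6/1-vehicle, then 13.2 in WT-RGFP109 and 7.30 in R6/1-RGFP109, with log2 ratios of -1.26 and -0.85. Lrrc4 itself had 23.9, 22.7, 23.2 and 22.9 FPKM, within the fold in both comparisons. Ntn5, a secreted member of the family, had 1.10, 0.236, 0.575 and 0.228 FPKM, with log2 ratios of -2.01 and -1.17. Its R6/1 values were near the minimum for inclusion, its locus in the tables is shared with Sec1, and that of Ntng2 with 6530402F18Rik. Ntn1, the classical chemoattractant, had 3.69, 4.37, 4.77 and 4.51 FPKM, with ratios of 0.24 and -0.08.

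Of the netrin receptors Unc5b was lower in R6/1 mice under vehicle. This receptor, which mediates repulsion from netrin, had 11.2 FPKM in WT-vehicle and 6.23 in R6/1-vehicle, then 8.08 in WT-RGFP109 and 6.52 in R6/1-RGFP109. Both R6/1 values lay below both wild type values, with log2 ratios of -0.84 and -0.31. Unc5a had 29.1, 23.9, 26.8 and 24.0 FPKM, with ratios of -0.29 and -0.16. Dcc, the attractive netrin receptor, had 3.90, 4.95, 4.36 and 4.36 FPKM and was within the fold in both comparisons.

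**Figure D3:**
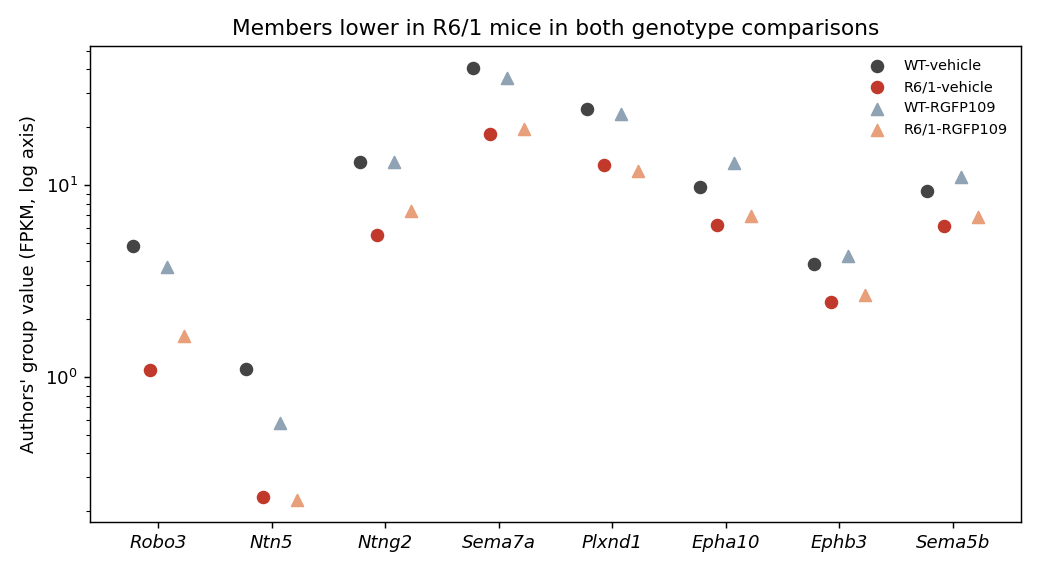
The 4 group values of each of the 8 genes lower in both genotype comparisons, in FPKM on a log axis, with circles for vehicle, triangles for RGFP109, dark grey and blue-grey for wild type and red and orange for R6/1. In each gene both R6/1 values lie below both wild type values, from Ntn5 at 0.236 against 1.10 FPKM under vehicle to Sema7a at 18.3 against 40.9 FPKM.

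The size of the genotype ratio was then set side by side between the treatments, which share no mice. Over all genes the ratios under RGFP109 and vehicle differed by a median of 0.34 (log2) for genes with a mean below 1 FPKM, 0.15 from 1 to 5 FPKM, 0.08 from 5 to 20 FPKM and 0.07 above. The 90th percentiles of that difference were 1.09, 0.50, 0.27 and 0.22. Among the 8 lower genes the difference was past the 90th percentile of its level for Robo3 (0.93), Ntng2 (0.41) and Sema7a (0.26), each with the ratio closer to 0 under RGFP109, and below it for Ntn5 (0.84), Plxnd1 (-0.02), Epha10 (-0.24), Ephb3 (-0.00) and Sema5b (-0.09). Among the other named members Unc5b (0.53), Ephb6 (0.43) and Efnb3 (0.24) were also past it with the ratio closer to 0 under RGFP109. So were Epha3 (-0.73) and Robo1 (-0.36), which were higher in R6/1 mice under vehicle. The log2 ratios of RGFP109 over vehicle in wild type and R6/1 mice were -0.47 and 0.06 for Unc5b and -0.29 and 0.14 for Ephb6. They were -0.28 and -0.04 for Efnb3, 0.59 and -0.15 for Epha3, and 0.19 and -0.17 for Robo1. For Unc5b, Ephb6, Efnb3 and Epha3 the wild type values thus differed more than the R6/1 values. For Robo3 these ratios were -0.37 and 0.56, for Ntng2 -0.0043 and 0.41, and for Sema7a -0.18 and 0.08. The ratio of Nrp2 (-0.74) went from positive to negative and that of Slit1 (0.49) from near 0 to positive. These percentiles describe the spread over genes and are not a test. Robo3, Ntn5, Epha3 and Nrp2 were named, in full or in part, for a treatment ratio past the fold, and such a ratio enters this difference. The 8 genes lower in both comparisons were chosen by the ratios that form this difference. Outside the named members Epha5 (-0.41), Epha6 (-0.64) and Sema4d (0.28) were also past the percentile of their level. The share of all members past the percentile was not counted, so the named members past it are no measure of that share.

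The treatment comparisons asked which guidance genes differed between RGFP109 and vehicle within each genotype. In wild type mice 2 members (2.78%) were higher with RGFP109, beside 3.29% of all genes, and 3 (4.17%) were lower, beside 4.94%. In R6/1 mice 1 member (1.39%) was higher, beside 2.77% of all genes, and 1 (1.39%) was lower, beside 3.31%. These counts are small and their gaps to the shares of all genes were not tested, and 66 of the 72 were past the fold in neither genotype. The median log2 ratio of the members was -0.0040 in wild type and -0.012 in R6/1 mice, next to -0.0052 and 0.00055 for all genes.

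Sema3b, a secreted semaphorin, was lower with RGFP109 in both genotypes. It had 2.12 FPKM in WT-vehicle and 1.40 in R6/1-vehicle, then 1.24 in WT-RGFP109 and 0.871 in R6/1-RGFP109, with treatment log2 ratios of -0.76 in wild type and -0.66 in R6/1 mice. The choroid plexus genes and some meningeal genes were also lower with RGFP109, beside 4.94% of all genes in wild type and 3.31% in R6/1 mice. All 8 choroid plexus genes were lower in each genotype, with a summed level of 1490, 632, 324 and 40.0 FPKM in the 4 groups in the order used for Sema3b. Most of that sum was Ttr, with 1443, 606, 306 and 30.5 FPKM, while Clic6 had 9.91, 9.29, 6.93 and 6.09 FPKM. Of the 6 meningeal genes 4 were lower in wild type and 2 in R6/1 mice, with sums of 30.7, 25.7, 17.2 and 15.9 FPKM. Igf2 was the largest part of these sums, with 18.8, 15.2, 9.15 and 7.99 FPKM. Lum and Slc6a13 had treatment log2 ratios of 0.17 and 0.10 in wild type mice. None of these genes was at 0 in any group, and their part in the Sema3b values was not tested.

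Robo3 was the member higher with RGFP109 in R6/1 mice, at 1.09 FPKM with vehicle and 1.64 FPKM with RGFP109, a log2 ratio of 0.56, while in wild type mice the ratio was -0.37. The R6/1-RGFP109 value remained below both wild type values. With 0.5 FPKM added before the ratio, the R6/1 treatment ratios of Robo3 and Sema3b were both within the fold. In wild type mice Ntn5 (-0.88) and Efna1 (-0.51), an ephrin also known from blood vessels, were lower with RGFP109, Efna1 with 2.75, 2.15, 1.93 and 2.01 FPKM in the 4 groups. Epha3 (0.59) and, just past the fold, Nrp2 (0.50) were higher in wild type mice with RGFP109, and in R6/1 mice their ratios were -0.15 and -0.24. For each of these the WT-vehicle value was the highest or the lowest of the 4. The comparisons by genotype under vehicle and by treatment in wild type mice share the WT-vehicle libraries, so an extreme WT-vehicle value enters both. Of the 5 olfactory bulb genes with values 4 were higher with RGFP109 in wild type and 1 in R6/1 mice (medians 0.90 and 0.14). Of the 6 thalamic genes 2 and 0 were higher (medians 0.49 and -0.16). The shares of all genes were 3.29% and 2.77%, and the part of these lists in the guidance gene values was not tested.

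**Figure D4:**
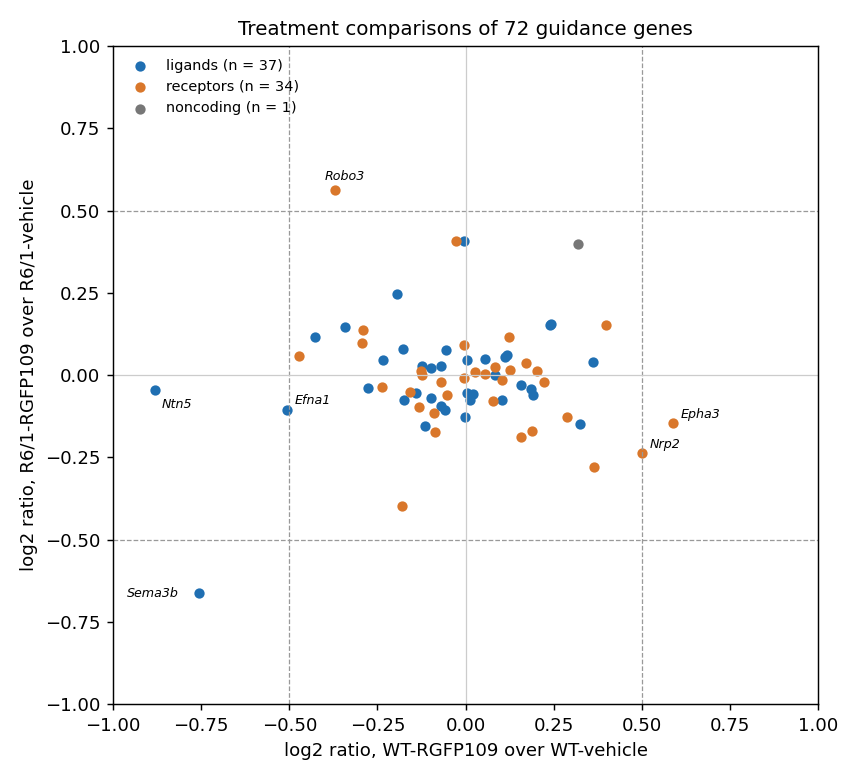
Each point is 1 guidance gene, with its log2 ratio of WT-RGFP109 over WT-vehicle on the x axis and of R6/1-RGFP109 over R6/1-vehicle on the y axis, and the dashed lines mark -0.5 and 0.5. Sema3b is the only member lower in both genotypes, Robo3 the only one higher in R6/1 mice, and 66 of the 72 genes lie inside both pairs of lines.

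Marker lists of the cell types and tissues that a striatal dissection could hold were read in these groups. The 13 genes of striatal projection neurons, Ppp1r1b and Drd1 among them, summed to 3503 FPKM in WT-vehicle and 3386 in WT-RGFP109, so the tissue carried the defining genes of striatum, and to 1385 and 1251 FPKM in the R6/1 groups, with 9 of the 13 lower in both genotype comparisons and median log2 ratios of -1.25 and -1.33. The 12 neocortical genes were lower under vehicle in 8 and under RGFP109 in 1, with sums of 527, 322, 500 and 381 FPKM in the order WT-vehicle, R6/1-vehicle, WT-RGFP109 and R6/1-RGFP109 and median ratios of -0.69 and -0.19. Of the 6 oligodendrocyte genes 4 and 0 were lower, with sums of 1786, 1085, 1434 and 1201 FPKM and medians of -0.67 and -0.12. The WT-vehicle sum was the highest for these 2 lists, and also for striatal projection neurons, choroid plexus, meninges, oligodendrocyte precursors, microglia and endothelium. It was not the highest for astrocytes, thalamus or olfactory bulb. Members with their highest value in WT-vehicle included Robo3, Ephb6, Efnb3, Unc5b, Sema7a, Plxnd1, Ntn5, Sema6b, Efna3 and Unc5a. Others, such as Epha10 and Sema5b, had it in WT-RGFP109. Robo1, Epha3, Epha5, Epha6 and Nrp2 had their lowest value in WT-vehicle. These are examples, and neither the members nor all genes were counted by the group of their highest value. The median was closer to 0 under RGFP109 for neocortical and oligodendrocyte genes, and farther from 0 for striatal projection neurons and astrocytes. The genotype medians were -1.21 and -1.48 for choroid plexus, 0.07 and 0.01 for meninges, -0.36 and -0.43 for astrocytes, -0.28 and -0.27 for microglia, -0.25 and -0.19 for endothelium and -0.24 and -0.09 for oligodendrocyte precursors. The 6 thalamic genes had medians of 0.08 and -0.49 and sums of 34.2, 28.3, 46.1 and 28.6 FPKM, and the 5 olfactory bulb genes with values had medians of -0.10 and -1.27 and sums of 23.5, 19.9, 33.9 and 18.2 FPKM. The part of these lists in the values of the guidance genes was not tested.

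A list of 62 other genes of guidance signaling held further ligands, receptors and adhesion molecules besides adaptors, exchange factors and cytoskeletal proteins. Of these 62, 6 (9.68%) were lower and 1 (1.61%) higher in R6/1 mice under vehicle, beside 13.3% and 5.86% of all genes. Under RGFP109 4 (6.45%) were lower and 1 (1.61%) higher, beside 11.7% and 5.53%. In both comparisons 4 (6.45%) were lower, beside 7.73% of all genes, and none of these gaps was tested. The median log2 ratios of the list were -0.021 and -0.0013. The 4 lower in both comparisons were Kalrn (-0.93 and -0.75), a guanine nucleotide exchange factor of dendritic spines, Ngef (-0.91 and -0.82), the exchange factor ephexin that acts below EphA receptors, Chn1 (-0.87 and -0.81), which encodes the Rac-inactivating protein chimaerin below EphA4, and Farp2 (-0.70 and -0.68), an exchange factor of plexin signaling. Chn1 had 320 FPKM in WT-vehicle and 175 in R6/1-vehicle, and 318 in WT-RGFP109 and 182 in R6/1-RGFP109. Ngef had 273, 145, 254 and 143 FPKM in that order of groups. Both thus had far more RNA than any ligand or receptor among the 72. Dpysl3, a collapsin response mediator gene, was higher in both comparisons (0.60 and 0.51). Mical2 (-0.66 and -0.34) and Met (-0.82 and 0.36) were lower under vehicle alone, and with RGFP109 Met and Draxin were lower in wild type mice and Met was higher in R6/1 mice, with at most 0.572 FPKM of Met and 0.402 of Draxin in any group.

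The members differ widely in gene span, from 4.44 kb for Plxna4os1 to 1555 kb for Robo2 in the RefSeq annotation. The median span was 29.8 kb for the 8 genes lower in both genotype comparisons (10.5 to 123 kb) and 666 kb for the 4 higher under vehicle, Robo1, Epha3, Epha5 and Epha6 (321 to 1020 kb). It was 49.8 kb for the 72 members and 21.2 kb for the 16446 genes with a match. Across the 72 members, which are not independent and share libraries, Spearman's rank correlation of span and log2 ratio was 0.41 for genotype under vehicle, 0.21 for genotype under RGFP109, 0.40 for RGFP109 in wild type mice and -0.12 for RGFP109 in R6/1 mice. Across all matched genes the values were 0.073, 0.0077, 0.14 and -0.044. The 2 larger values among the members belong to the comparisons that share WT-vehicle as reference.

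**Figure D5:**
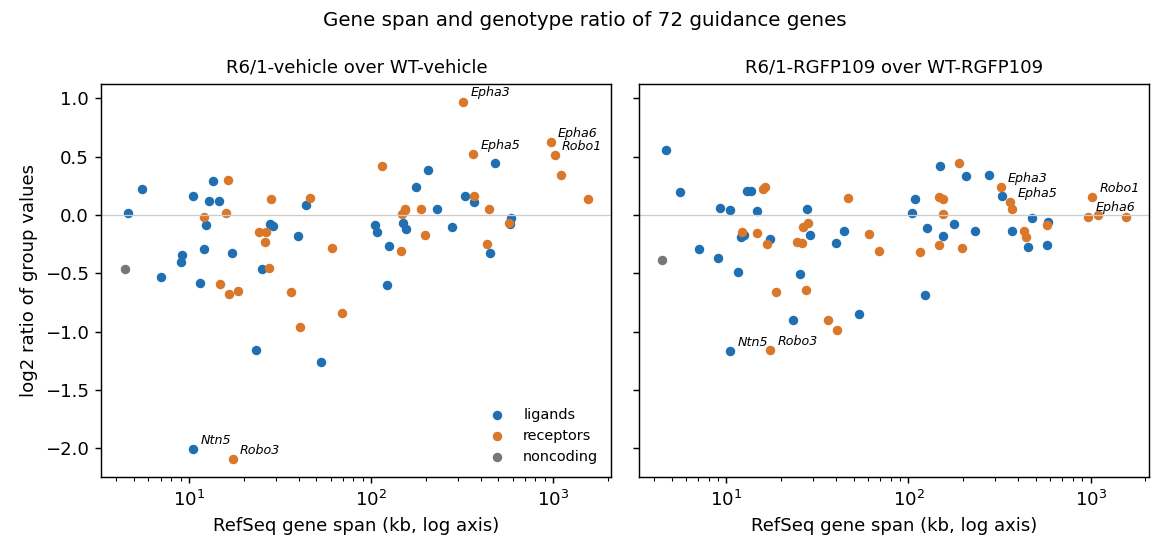
RefSeq gene span in kb (log axis) against the log2 ratio of R6/1 over wild type for the 72 members, under vehicle on the left and RGFP109 on the right. The 4 genes higher under vehicle, labelled Robo1, Epha3, Epha5 and Epha6, all span at least 321 kb, and under RGFP109 their ratios lie between -0.01 and 0.24.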

How the data were processed

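Striatal RNA-seq of 24 libraries in 4 groups was analysed. Single-end reads were mapped by the authors to RefSeq mm10 with STAR 2.5.0b, and they computed FPKM with Cufflinks 2.2.1 and ran Cuffdiff on each pair of groups, per the submitters' processing notes and the methods. They deposited 6 tables with 1 FPKM value per group. The tables also hold the authors' fold changes, test statistics, p-values, q-values and calls, which were not used. Values per library were not used here, so no SD, interval, depth or test is given.

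Genes with at least 0.1 FPKM in any group were kept, and log2 ratios were taken within a pair's own table after adding 0.05 FPKM. Ratios beyond 0.5 were counted. The calculation was run on simulated data with changes well past the fold and little noise. That checks the code and says nothing on how reliable the calls are. Table coordinates have 1 added to the start. Members were named with values if past the fold in both genotype comparisons, if at least 1 FPKM and past the fold in a treatment comparison, or if among the 2 highest of a family. Robo1 was added because the study names it, and partners and small counts were named after their values were seen. The members, the pathway list and the marker lists were chosen with earlier results of these data known. Promoters and gene spans are from RefSeq. Calculations ran in pandas 2.3.3 and numpy 2.4.6 under Python 3.11.15, with scipy 1.17.1 for rank correlations and figures from matplotlib 3.10.9.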

Additional observations from a re-analysis of the deposited data

How the results depend on the processing

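Of 100 recomputed counts and medians, 83 moved by no more than their allowance and 17 moved. With a pseudocount of 0.5 FPKM the members higher in R6/1 mice numbered 2 under vehicle and 0 under RGFP109, those higher with RGFP109 numbered 0 in wild type and 0 in R6/1 mice, and those lower with RGFP109 in R6/1 mice numbered 0. With a pseudocount of 0.01 FPKM 2 members were higher with RGFP109 in R6/1 mice, and with a minimum of 1 FPKM 0 members were higher in R6/1 mice under RGFP109. With a minimum log2 ratio of 1, 4 members were lower and 0 higher in R6/1 mice under vehicle, 2 lower and 0 higher under RGFP109, 2 lower in both, and 0 past it in either direction in either treatment comparison. With WT-RGFP109 as reference for R6/1-vehicle, an alternative chosen after seeing the data, 0 members were higher and 11 lower, and the ratio of Sema3b turned from -0.58 to 0.17. The cause was not tested. Of 650 values of named members, 600 moved little, 49 moved and 1 reversed. No paired analysis was possible because each table holds 1 value per group, and leaving out each replicate was not run for the same reason. The depth is unknown, so what it limits could not be measured.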
